A study of Drosophila melanogaster with 6 samples.

Results

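Enzyme genes that make fatty acids, lengthen them or put double bonds into them were followed in whole adult females of the fruit fly Drosophila melanogaster. They were picked by symbol and number 10: FASN1, FASN2, FASN3, ACC, ATPCL, Desat1, Fad2, eloF, Baldspot and bond. Of these 10 genes, 9 have a probe set (a group of short probes whose signals are summarised into 1 value), each has exactly 1, and together they are 9 of the 18769 probe sets tested. Baldspot has no value here. The arrays compare 2 stocks, with 3 arrays of the mutant Calment1/4, which had been placed in a background called CS10, and 3 arrays of CanS, the wild-type Canton-S. Each array holds RNA of a pool of 30 to 35 whole females cultured at 25 °C, and the titles call the arrays biological replicates. No age is given, and the mutation and the stock background differ together between the groups, so that they cannot be told apart. In RNA of whole flies, fewer cells of a type and less RNA per cell cannot be told apart either.

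Fatty acids are built in the cytosol from acetyl-CoA. ATP citrate lyase supplies it, acetyl-CoA carboxylase turns it into malonyl-CoA, and fatty acid synthase joins the units into a saturated chain. In the fat body, the fly's counterpart of liver and adipose tissue, the product is stored as triglyceride. In the oenocytes, cells under the cuticle of the abdomen, chains are desaturated, elongated, reduced and finally decarbonylated to the cuticular hydrocarbons, which limit water loss and act as contact pheromones. Females carry dienes whose synthesis needs the female desaturase Fad2 and the female elongase eloF.

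None of the 9 genes passed the test between the stocks, and the direction was nearly uniform: 8 of 9 had a higher mean in Calment1/4 than in CanS, as 50.2% of all probe sets did. On the log2 scale the differences (Calment1/4 minus CanS) ran from -0.06 for ATPCL to 0.39 for Fad2, with a median of 0.21, against a median of 0.0049 over the 11982 genes with a probe set. In 6 of the 9, FASN1, FASN2, FASN3, ACC, Fad2 and eloF, all 3 Calment1/4 arrays lay above all 3 CanS arrays. Over all probe sets the groups did not overlap in 12.6%, and in 6.36% the Calment1/4 arrays were the higher ones. Limma's test with Benjamini-Hochberg adjustment called 0 of the 9 at an adjusted p of 0.05, where it called 0.464% of all probe sets. At an unadjusted p under 0.05 it had 5 of 9, all higher in Calment1/4, against 7.67% of all probe sets in both directions and 3.71% higher. The genes had been chosen with earlier results of these data known, so these counts describe them and are no test of the group.

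**Figure D1:**
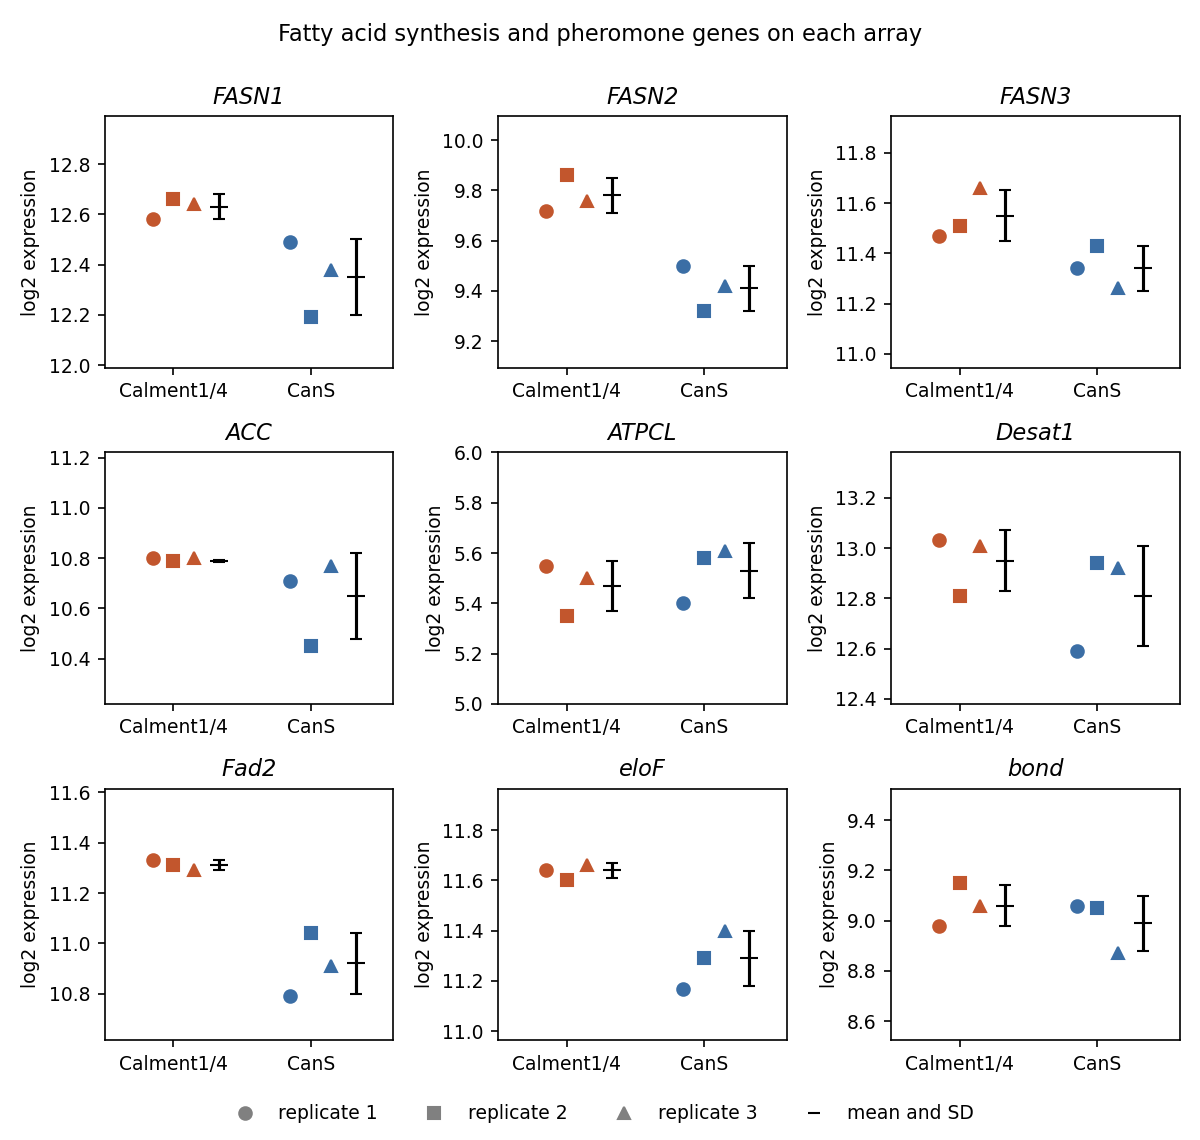
Deposited log2 expression of the 9 genes on each array, with Calment1/4 at the left of each panel and CanS at the right; symbols are replicates, the bar gives the mean and SD of 3 arrays, and every panel spans 1 log2 unit. The 3 Calment1/4 points lie above the 3 CanS points for FASN1, FASN2, FASN3, ACC, Fad2 and eloF, and the groups overlap for ATPCL, Desat1 and bond.

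At the first steps of the pathway, neither gene passed. ATPCL, ATP citrate lyase, had log2 values of 5.55, 5.35 and 5.50 in Calment1/4 and 5.40, 5.58 and 5.61 in CanS. The groups overlapped, and the difference was -0.06 (SE 0.09, adjusted p = 0.985 in limma). ATPCL was the dimmest of the measured genes. Its means of 5.47 in Calment1/4 and 5.53 in CanS lay below the array medians over all probe sets (5.84 to 5.91). ACC, acetyl-CoA carboxylase, had 10.80, 10.79 and 10.80 in Calment1/4 and 10.71, 10.45 and 10.77 in CanS. Its Calment1/4 arrays were nearly identical (SD 0.0037) and all above CanS, whose replicate 2 was the low one. The difference of 0.15 (SE 0.10, adjusted p = 0.866 in limma) was 0.05 without CanS replicate 2.

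For all 3 fatty acid synthase genes every Calment1/4 array lay above every CanS array, and none of the genes passed. FASN1, the synthase of the fat body, had 12.58, 12.66 and 12.64 in Calment1/4 and 12.49, 12.19 and 12.38 in CanS, a 1.21-fold difference (95% interval of the fit 1.04 to 1.41, adjusted p = 0.471 in limma). FASN2, a synthase of the oenocytes, had 9.72, 9.86 and 9.76 in Calment1/4 and 9.50, 9.32 and 9.42 in CanS. The gap between its lowest Calment1/4 array and its highest CanS array was wide beside its replicate spread, and its mean was 9.78 ± 0.07 on the Calment1/4 arrays against 9.41 ± 0.09 on the CanS arrays (SD, n = 3 each). This is 1.29-fold (95% interval 1.13 to 1.48, adjusted p = 0.156 in limma), and FASN2 ranked 264 of 18769 by p. FASN3, the other oenocyte synthase, had 11.47, 11.51 and 11.66 in Calment1/4 and 11.34, 11.43 and 11.26 in CanS. Its groups were separate but close, at 1.15-fold (unadjusted p = 0.0471, adjusted p = 0.642 in limma), and the difference of 0.21 was 0.15 without Calment1/4 replicate 3 and 0.16 without CanS replicate 3. With arrays weighted by their quality in the fit, FASN2 passed (0.41, adjusted p = 0.0369 in limma); it was the only one of the 9 to pass under any alternative, and that fit called 337 of all probe sets in place of 87.

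Of the desaturases, Fad2 had separate groups and Desat1 had not. Fad2, the female desaturase that puts the second double bond into pheromone chains, had 11.33, 11.31 and 11.29 in Calment1/4 and 10.79, 11.04 and 10.91 in CanS. Its Calment1/4 arrays were tight, and even the highest CanS array stood below them. The means were 11.31 ± 0.02 in Calment1/4 and 10.92 ± 0.12 in CanS (SD, n = 3 arrays each), which is 1.31-fold (95% interval 1.15 to 1.51, adjusted p = 0.134 in limma). It had the smallest p of the 9 genes, at rank 233 of 18769. Desat1, which makes the first double bond of storage lipids and of pheromones alike, had 13.03, 12.81 and 13.01 in Calment1/4 and 12.59, 12.94 and 12.92 in CanS. Calment1/4 replicate 2 lay among the CanS arrays, and CanS replicate 1 was the low one. Its difference of 0.14 (SE 0.12, adjusted p = 0.920 in limma) was 0.02 without CanS replicate 1. A test of Fad2 against Desat1 was not made.

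Of the elongases, eloF had separate groups and bond had not. The female elongase eloF, which lengthens the chains of the dienes, had 11.64, 11.60 and 11.66 in Calment1/4 and 11.17, 11.29 and 11.40 in CanS. All 3 Calment1/4 arrays lay close together and above CanS, where replicate 3 came nearest. The means were 11.64 ± 0.03 in Calment1/4 and 11.29 ± 0.11 in CanS (SD, n = 3 arrays each), 1.27-fold (95% interval 1.11 to 1.46, adjusted p = 0.192 in limma). The elongase bond, known for making a male pheromone and for sperm development, had 8.98, 9.15 and 9.06 in Calment1/4 and 9.06, 9.05 and 8.87 in CanS. Its groups overlapped, with a difference of 0.07 (SE 0.09, adjusted p = 0.971 in limma).

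**Figure D2:**
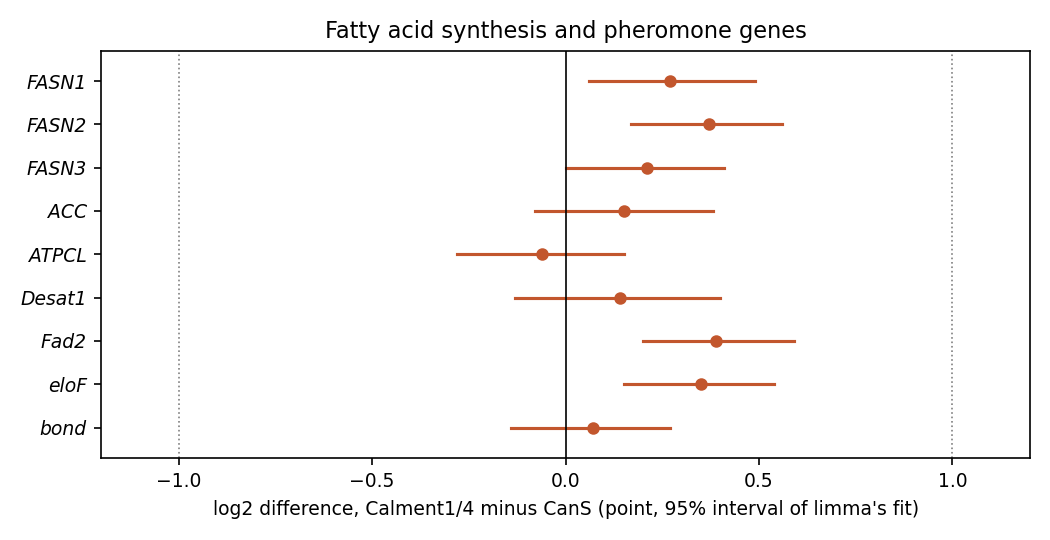
Log2 difference (Calment1/4 minus CanS) of the 9 genes with the 95% interval of limma's fit, which is not adjusted for the number of genes; the dotted lines mark 2-fold. The intervals of FASN1, FASN2, FASN3, Fad2 and eloF lie above 0, that of Fad2 is the farthest from it, and no interval reaches 2-fold.

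The intervals limit what these arrays allow for each gene taken singly. The upper bounds ran up to 1.51-fold, for Fad2, and the lowest bound was 0.824-fold, for ATPCL. A 2-fold difference lies outside the interval of all 9, while for ACC, ATPCL, Desat1 and bond differences in either direction lie inside it. The replicate spread of the 9 genes (pooled SD within groups) ran from 0.08 for FASN2 and eloF to 0.16 for Desat1, around the median of 0.12 over all probe sets.

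Read array by array, the median over the genes kept the order of the groups, whereas ATPCL, Desat1 and bond singly did not. The median of the 9 genes, each taken around its own mean over the 6 arrays, was 0.09, 0.12 and 0.15 in Calment1/4 and -0.10, -0.08 and -0.11 in CanS. In Calment1/4, 7 or 8 of the 9 genes stood above their own mean on each array, and in CanS 1 to 3 did. Some genes followed each other closely over the arrays. Among 36 pairs, FASN1 and FASN2 had the smallest root mean square difference of these centred values (0.063), Fad2 and eloF the next (0.075) and FASN1 and ACC the third (0.087), while ATPCL and FASN2 were the farthest apart (0.26). These values share the same 6 arrays, and the separation of the groups is part of them. FASN1 and FASN2 are direct neighbours on chromosome arm 2L and close relatives. Whether their probes also bind each other's RNA was not tested.

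FASN2 had the widest range over the 6 arrays of the 9 genes, 0.54 on the log2 scale, and among 13646 probe sets of other single genes the closest to its pattern were LanB1, Ptr, DIP-alpha, CG15160 and plum. LanB1, a laminin chain of the basement membrane, differed from it by a root mean square of 0.026. The other 4 differed by 0.047 to 0.052. LanB1 had 8.85, 9.02 and 8.94 in Calment1/4 and 8.61, 8.50 and 8.57 in CanS, a difference of 0.38 (adjusted p = 0.132 in limma). None of the 5 passed.

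The other genes of the pathway were taken from lists that hold 73 genes, of which 68 have a probe set (76 probe sets). Limma called 0 of them at an adjusted p of 0.05, whereas at an unadjusted p under 0.05 there were 18 of 68 genes (26.5%), 12 higher and 6 lower in Calment1/4, against 7.67% of all probe sets, 3.71% higher. Their median difference was 0.03, and 38 of 68 were above 0, against 50.2% of all probe sets. For these shares and the median each gene was counted by its brightest probe set, whereas the shares beside them cover every probe set. The lists were drawn up with earlier results of these data known.

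Elongases other than eloF and bond went both ways. Of 16 measured, 11 were above 0 and 5 below (median 0.16), none passed, and at an unadjusted p under 0.05 there were 5 higher and 3 lower, beside the 7.67% of all probe sets (3.71% higher). Those of smallest p were CG6660, with 9.24, 9.25 and 9.21 in Calment1/4 and 8.78, 9.07 and 8.92 in CanS (0.31, adjusted p = 0.329 in limma), and CG16904, with 12.06, 12.05 and 12.04 in Calment1/4 and 11.63, 11.83 and 11.86 in CanS (0.27, adjusted p = 0.406 in limma). Both had tight Calment1/4 arrays that lay above all CanS arrays, the same picture as eloF. CG16904 is the direct neighbour of eloF on arm 3R, and the next genes on that side, CG9459 and CG9458, are elongases of the same row, which were singled out after their values were seen. CG9459 and CG9458 both differed by 0.31 (adjusted p = 0.631 and adjusted p = 0.571 in limma), and by 0.20 and 0.19 without CanS replicate 1. The elongase on the other side of eloF, CG8534, also singled out afterwards, had 5.69, 5.83 and 5.68 in Calment1/4 and 6.11, 5.84 and 6.85 in CanS. It stood at -0.53 (adjusted p = 0.619 in limma) and at -0.24 without CanS replicate 3. Cross-binding of probes within this row of related genes was not tested.

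Each round of elongation needs 3 further enzymes, and all 4 genes listed for them were above 0 (median 0.18). The ketoacyl reductase gene spidey had 10.25, 10.29 and 10.12 in Calment1/4 and 9.95, 9.90 and 9.97 in CanS (0.28, adjusted p = 0.312 in limma). The enoyl reductase gene Sc2 had 11.27, 11.34 and 11.31 in Calment1/4 and 11.10, 11.14 and 11.12 in CanS (0.19, adjusted p = 0.566 in limma). Neither gene's groups overlapped, and neither passed. The dehydratase genes Hacd1 and Hacd2 stood at 0.17 and 0.11.

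Of the 6 other desaturase genes, 1 was above 0 and 5 below. CG15531 had 9.79, 9.80 and 9.82 in Calment1/4 and 9.19, 9.60 and 9.46 in CanS (0.38, adjusted p = 0.312 in limma). CG8630 went the other way, with 7.44, 7.23 and 7.20 in Calment1/4 and 7.83, 7.48 and 8.07 in CanS (-0.50, adjusted p = 0.336 in limma). Both had separate groups with wide CanS values. Desat2, which lies 3 genes from Desat1 and shapes female hydrocarbons in some fly populations, stood at -0.0043 with overlapping groups.

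Fatty acyl-CoA reductases make the aldehydes and alcohols from which hydrocarbons and waxes are formed. Of 15 measured, 6 were above 0 and 9 below (median -0.06), and none passed. CG17560 had 10.91, 10.99 and 11.03 in Calment1/4 and 10.46, 10.66 and 10.70 in CanS (0.37, adjusted p = 0.196 in limma), and its direct neighbour CG17562, named after its values were seen, stood at 0.28. CG8306 had 7.79, 7.73 and 7.71 in Calment1/4 and 8.04, 7.94 and 8.06 in CanS (-0.27, adjusted p = 0.310 in limma). So genes of 1 enzyme family lay on opposite sides, in each case with no overlap between the groups. Cyp4g1, the oenocyte cytochrome P450 that carries out the last, decarbonylating step, had 14.23, 14.26 and 14.26 in Calment1/4 and 14.11, 14.11 and 14.13 in CanS. That is 0.13 (adjusted p = 0.770 in limma), a small separation with no overlap. Cyp4g1 was among the brightest of all probe sets (percentile 99.9 by mean), and whether differences are compressed there was not tested. Its relative Cyp4g15 stood at 0.18, which was 0.10 without Calment1/4 replicate 1 and 0.09 without CanS replicate 2.

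**Figure D3:**
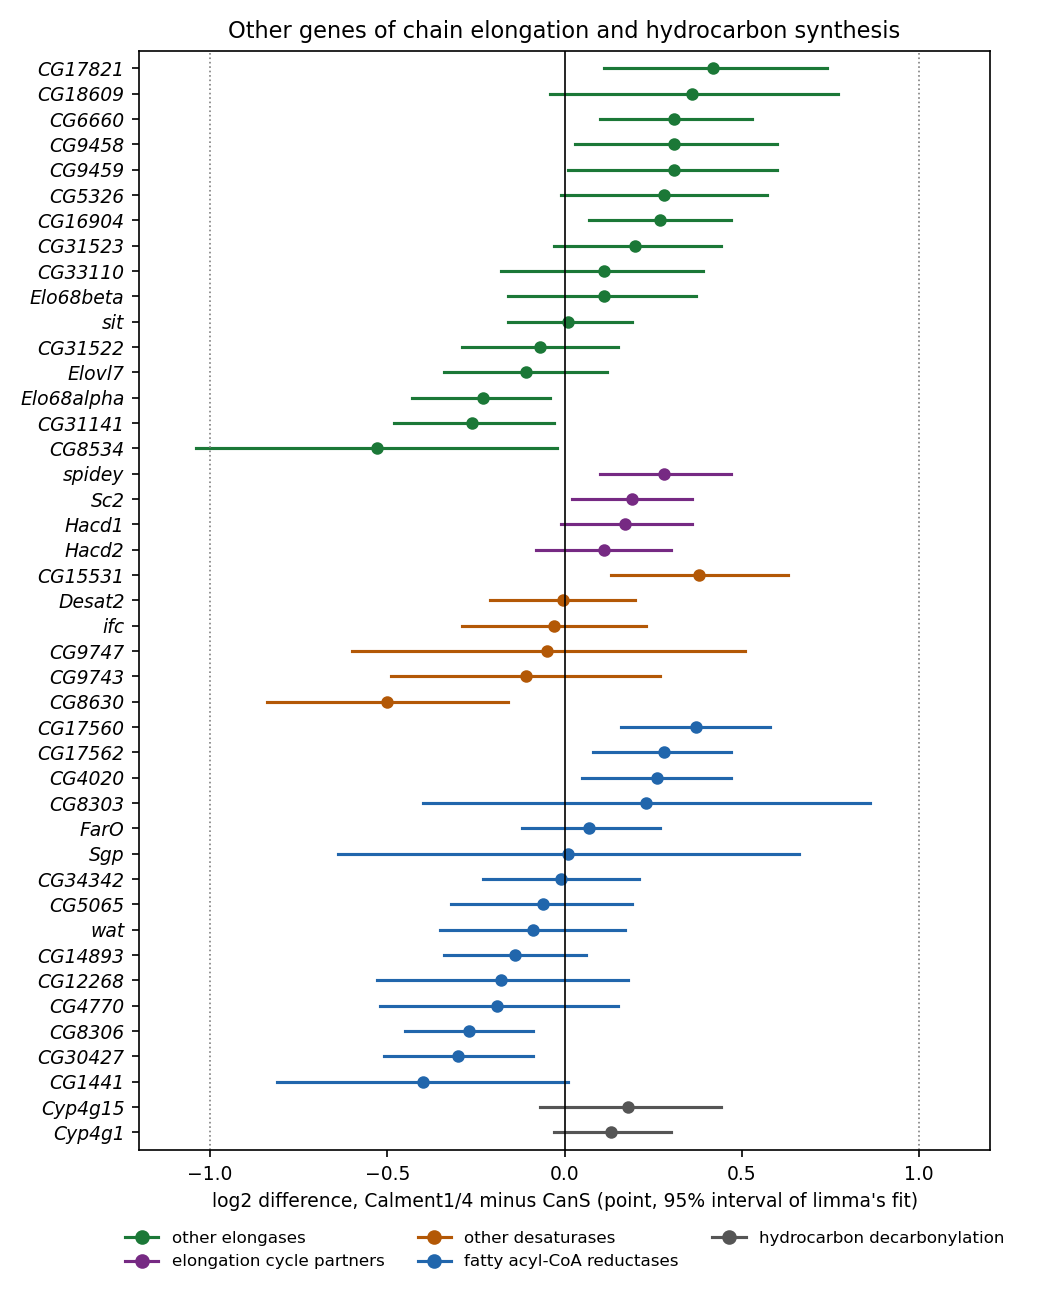
Log2 difference (Calment1/4 minus CanS) and 95% interval of limma's fit, not adjusted for the number of genes, for the other elongases, the partners of the elongation cycle, the other desaturases, the fatty acyl-CoA reductases and both P450 genes, 1 probe set a gene; dotted lines mark 2-fold. The 4 elongation cycle partners lie above 0, and the elongases, desaturases and reductases spread to both sides.

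Most genes around the pathway were close to 0. The 3 measured genes that supply acetyl-CoA and NADPH were all below 0, with AcCoAS, acetyl-CoA synthetase, at -0.12 and Men, malic enzyme, at -0.11. Without CanS replicate 3 they stood at -0.02 and -0.05, and AcCoAS at -0.21 without CanS replicate 1. Of 8 regulators of lipid synthesis 7 were above 0 (median 0.04). The transcription factor gene sug (sugarbabe) had 8.90, 8.79 and 8.71 in Calment1/4 and 8.68, 8.45 and 8.50 in CanS (0.26, adjusted p = 0.509 in limma), while Mondo, the sugar-sensing factor, stood at 0.11 (0.05 to 0.20 with 1 CanS array left out) and SREBP, the factor that drives fatty acid synthase transcription, at -0.02. The 14 genes of triglyceride synthesis and lipid droplets were split evenly, 7 above and 7 below 0, from -0.13 to 0.18. CG1946 stood at 0.18 and mdy, the acyltransferase of the last triglyceride step, at 0.13, or 0.08 without CanS replicate 3. None of these 3 lists had a member past the test.

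Array medians over all probe sets lay between 5.84 and 5.91, and arrays correlated at 0.991 to 0.998. Calment1/4 replicate 1 and CanS replicate 3 stood apart in reproductive tissue: the 17 yolk and eggshell genes had medians around their own means of -0.39, 0.32 and 0.29 in Calment1/4 and 0.22, 0.19 and -0.65 in CanS. The 15 female germline genes had -0.33, 0.15 and 0.26 in Calment1/4 and 0.03, 0.09 and -0.23 in CanS. Without these 2 arrays the differences of the 9 genes ran from -0.07 for ATPCL to 0.40 for FASN2 and eloF, with the same median of 0.21 and 0 past the test. As a check of the labelled sex, yolk and eggshell genes had means of 8.22 to 13.98 in Calment1/4 and 8.29 to 14.03 in CanS, while 9 markers of testis and male accessory gland had means of 2.78 to 4.28 in Calment1/4 and 2.88 to 4.42 in CanS.

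Markers of the cells that make these lipids were read beside the 9 genes. The 4 measured oenocyte markers (of 5 listed) were all above 0, from 0.07 for FarO and Hnf4 to 0.33 for svp, with array medians of 0.04, 0.04 and 0.08 in Calment1/4 and -0.08, -0.04 and -0.06 in CanS. None passed. Cyp4g1, FarO and Hnf4 are also genes of the pathway lists, and only svp, whose groups overlapped, is not. The 6 measured fat body markers (of 7 listed) went the other way in 5 of 6, with array medians of -0.16, -0.27 and -0.17 in Calment1/4 and -0.08, 0.33 and 0.43 in CanS. Of these, fit, whose product the fat body of females releases, was lower by a log2 difference of -2.17 and passed (adjusted p = 0.0180 in limma), but its adjusted p was 0.0829 when Calment1/4 replicate 2 was left out (-2.25), 0.0746 when Calment1/4 replicate 3 was (-2.19), 0.0567 when CanS replicate 1 was (-2.29) and 0.0714 with trend and robust on. Lsp2, a larval serum protein, stood at -1.36 (adjusted p = 0.176 in limma) and apolpp, the lipoprotein that carries fat in the blood, at -0.24. Lsp2 was dim, with 5.36, 5.18 and 4.92 in Calment1/4 and 5.74, 7.25 and 6.57 in CanS. Its Calment1/4 values and CanS replicate 1 lay below the array medians over all probe sets (5.84 to 5.91). The exception was AkhR, the receptor for the fat-mobilizing adipokinetic hormone, at 0.56 with all 3 Calment1/4 arrays above CanS (adjusted p = 0.0608 in limma). The 10 gut markers had array medians of -0.02, -0.19 and -0.15 in Calment1/4 and 0.07, 0.17 and 0.26 in CanS. None passed, 9 of the 10 were below 0, and they were uneven. Mal-A1 stood at -1.47 and Npc2e at -1.31, whereas the trypsin genes alphaTry, betaTry and epsilonTry stood at -0.04, -0.01 and 0.04. These 3 trypsin genes were among the brightest of all probe sets, at percentiles of 99.9, 99.9 and 99.4 by mean. Whether differences are compressed at such brightness was not tested, which limits this contrast. Between the stock means of these array medians, the oenocyte list differed by 0.11, on the same side as the 9 genes (0.21). The lists of neurons (0.14), yolk and eggshell (0.15) and female germline (0.07) lay on that side too. Their array medians overlapped between the stocks. Fat body (-0.43), gut (-0.29) and muscle (-0.29) lay on the opposite side, with overlap for muscle, and male tissue stood at -0.02. Within the yolk and eggshell list, 9 genes were above 0 and 8 below. Its gene Cp18 was higher in Calment1/4 by 0.74 and passed (adjusted p = 0.0435 in limma). In 4 of its 17 genes, Cp18 among them, all Calment1/4 arrays lay above CanS, against 6.36% of all probe sets, and in 0 the reverse held. The part of cell composition in the values of the 9 genes was not tested.

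**Figure D4:**
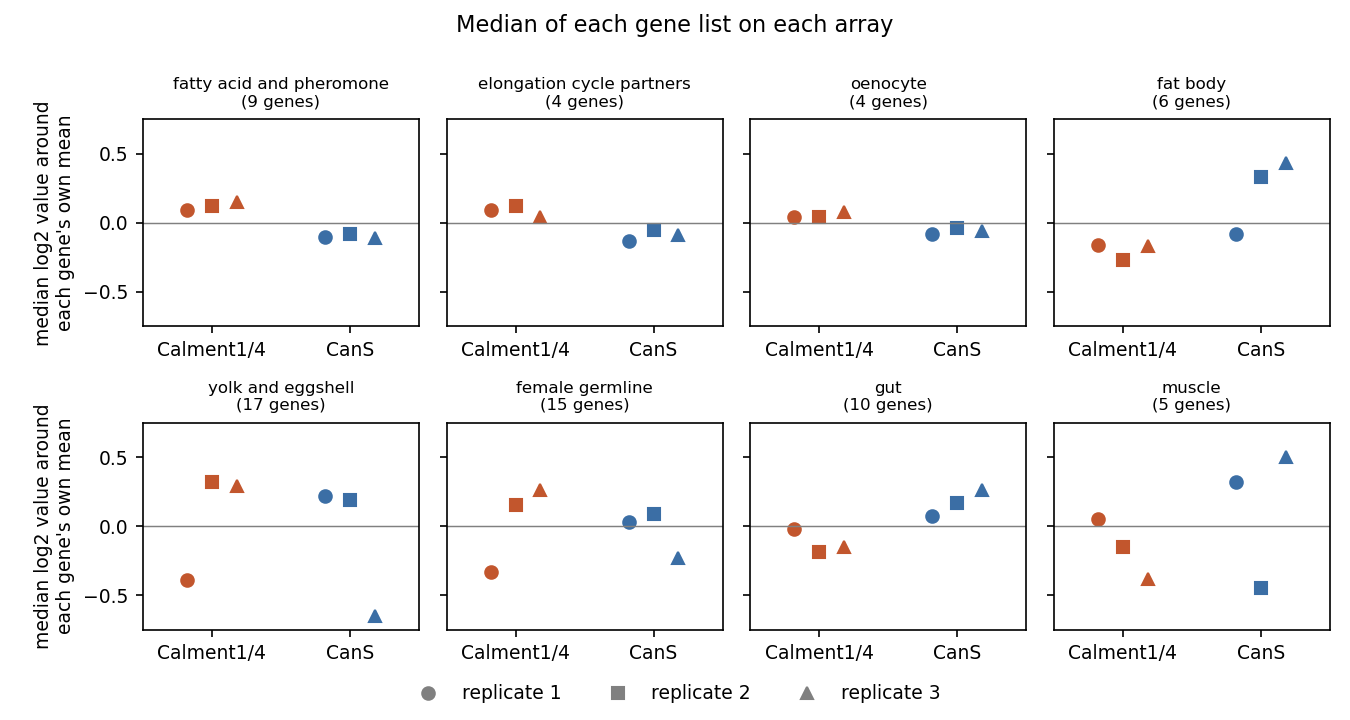
Median log2 value of each gene list around each gene's own mean over the 6 arrays, 1 point an array, Calment1/4 at the left and CanS at the right. The medians of the fatty acid and pheromone genes, the elongation cycle partners and the oenocyte markers separate the stocks with Calment1/4 above. Those of fat body and gut markers lie lower in Calment1/4. The medians of yolk, eggshell, germline and muscle markers vary more within a stock than between the stocks, though some single eggshell genes had separate groups.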

How the data were processed

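RNA of 6 pools of whole females was hybridised to one-colour Affymetrix arrays, per the labels' protocols. The deposited values are log2 summaries, 1 per probe set and array. Which tool made them is not stated: affy 1.36.0, RMA and MAS5 appear, with no roles, in the submitters' processing notes. The 6 arrays share a scale, and with such scaling a shift of most transcripts together would go unseen. Detection calls were not used here. Of 18952 probe sets, 183 controls were left out. Symbols came from the platform's annotation, updated to RefSeq through gene identifiers: 13647 probe sets have 1 symbol (13544 matched), 402 several and 4720 none. No genome build of the array is stated in these sources, so no coordinates are printed. ATPCL, Desat1 and bond are measured by probe sets of the "_s_at" type, which can match more than 1 transcript.

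The test was limma's (version 3.58.1, R 4.3.3, lmFit and eBayes with genotype alone, two-sided, Benjamini-Hochberg over all 18769 probe sets). The step was tested on simulated data with planted differences of 1 and 2 log2 units, larger than those of the 9 genes. Recovery of differences as small as theirs was not tested. Genes and lists were chosen with earlier results of these data known. Named are all 9 genes, pathway genes past the threshold or the 2 of smallest p per list, and the 5 closest patterns to the gene of widest range. Hacd1, Hacd2, Desat2, SREBP, the neighbouring genes and the cell type markers were named outside this rule, after their values were seen. A gene with several probe sets is given by its brightest. Alternatives were other normalizations, a filter on the dimmest 33.3%, trend and robust, array weights, a block for replicate number, arrays left out, a threshold of 0.01 and 1 value per gene. Figures used matplotlib 3.10.9. The number of arrays limits the precision.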

Additional observations from a re-analysis of the deposited data

How the results depend on the processing

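Of 135 recomputed differences of the 9 genes, 134 kept their direction and stayed on the same side of the threshold, and 1 passed it, FASN2 with array weights (0.41, adjusted p = 0.0369 in limma), so that 1 of the 9 was called there. The count of called genes was 0 under every other alternative, and that of the other pathway genes was 0 under all of them. Leaving out 1 array gave 0.33 to 0.46 for Fad2, 0.32 to 0.41 for FASN2, 0.29 to 0.40 for eloF, 0.20 to 0.34 for FASN1, 0.15 to 0.25 for FASN3, 0.05 to 0.21 for ACC, 0.02 to 0.21 for Desat1, 0.0082 to 0.11 for bond and -0.13 to -0.0065 for ATPCL. The median of the 9 ran from 0.15 without Calment1/4 replicate 3 to 0.24 without Calment1/4 replicate 1. The count over all probe sets was less stable: 87 in the fit reported, 337 with array weights, 30 with the replicate number as a block, 57 with probe sets averaged per gene, 38 at a threshold of 0.01, 228 without Calment1/4 replicate 1 and CanS replicate 3 together, and 38 to 281 with single arrays left out (38 without Calment1/4 replicate 2, 45 without Calment1/4 replicate 3, 54 without CanS replicate 3 and 281 without Calment1/4 replicate 1). The causes were not tested. The replicate numbers did not pair the arrays (correlations of same-numbered deviations -0.288, 0.203 and -0.431), and with the replicate block 0 of the 9 passed (Fad2 0.39, adjusted p = 0.412; FASN2 0.37, adjusted p = 0.498 in limma). Probe brightness over background was not available, which limits statements on dim genes such as ATPCL, CG31141, Elo68alpha and Lsp2. Compression of differences in the brightest genes, such as Cyp4g1, alphaTry and betaTry, was not tested either.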

Other observations

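The genes on either side of the pair FASN2 and FASN1 on arm 2L were read for comparison, in the order of the RefSeq annotation, after their values were seen. CG17261, next to FASN2, stood at 0.28 (adjusted p = 0.734 in limma), FASN2 at 0.37, FASN1 at 0.27 and toc, next to FASN1, at 0.36 (adjusted p = 0.313 in limma). The genes one step farther out, CG17221 and PpD6, stood at 0.10 and -0.02. None of the 6 passed, and the region was not tested as a unit.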
